A study of Mus musculus with 6 samples.

Results

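The genes described here encode the guidance cues semaphorins, netrins, Slits and ephrins and their plexin, Robo and Eph receptors, in endothelial cells that express a human Integrin-β1 either as wildtype or with an acetyl-mimetic mutation. They were chosen by a rule on symbols, with earlier results of these data known. The rule takes the symbols of the count table that begin with Sema, Plxn, Epha, Ephb, Efna, Efnb, Slit, Robo or Ntn and go on with the member's number or letter, and it found 62 of 23420 gene symbols. The 62 were 20 semaphorins, 4 netrins, 3 Slits, 5 ephrin-A and 3 ephrin-B genes as ligands, and 9 plexins, 4 Robo genes, 9 EphA and 5 EphB genes as receptors. The cells were eEnd2, an endothelial line of embryonic mouse origin, stably transfected with a chimera of human Integrin-β1 that carries GFP in its extracellular domain. In β1-WT-GFP cells the chimera was wildtype, and in β1-K794Q-GFP cells a lysine of the cytoplasmic tail was replaced by glutamine, which mimics a permanently acetylated lysine. Both chimeras were driven by a short human β-actin promoter in a plasmid with a matrix attachment region, and no further treatment was given. Total RNA of 3 confluent cultures (A, B and C) for each chimera was sequenced.

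Cells with GFP had been sorted by flow cytometry into a population of low and a population of high GFP, and the sources used here do not name the population behind each culture. The paper reports, without showing the data, that both chimeras were expressed at similar levels and without change over passages. The 3 cultures of a group came from transfected and sorted cells that were then sub-cultured, so they are not known to be separate transfections, and the p-values measure only the spread between these cultures. In bulk RNA of this kind, fewer cells expressing a gene and less RNA per cell cannot be told apart.

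These cues were first known from growing axons and act on endothelial cells as well. Semaphorins bind plexins, the secreted class 3 members mostly together with neuropilins, and plexin signals release adhesions and retract the cell edge, in part through integrins. Ephrins are bound to the membrane and bind Eph receptor tyrosine kinases on a neighbouring cell, with signals into both cells; ephrin-B2 and EphB4 mark arterial and venous endothelium. Slits bind Robo receptors and netrins bind neogenin and Unc5 receptors, and both are known to guide sprouting vessels.

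Values given in threes stand in the order of cultures A, B and C. Sequencing gave totals of 10918600, 9589826 and 15287191 for the β1-WT-GFP cultures and of 10203916, 11197729 and 11071680 for the β1-K794Q-GFP cultures. Fold changes carry their standard error (SE), on the log2 scale. Levels are TMM-normalized counts scaled to a total of 10⁶ (CPM), and a level compared between genes is divided by the exon length of the gene (CPM per kb). A count of 0 allows up to 3 counts, which at these depths was between 0.209 and 0.3 CPM. These limits cover counting error only.

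Of the 62 genes, 36 had enough counts to be tested, among 11608 tested genes in all. The 26 others comprised 5 with 0 counts in every culture (Epha3, Epha5, Epha6, Epha10 and Sema5b), and in 16 of the 26, these 5 included, no culture had more than 3 counts. The EphA receptors were the family least often detected, with 1 of 9 tested. Of the EphB genes 2 of 5 were tested, of the ephrin-A genes 3 of 5, of the semaphorins 11 of 20, of the netrins 3 of 4 and of the Slits 2 of 3, and tested were also 8 of 9 plexins, 3 of 4 Robo genes and 3 of 3 ephrin-B genes. Among the untested genes a single culture held most counts of a pair of genes, picked out here after their values were seen. Sema5a, a transmembrane semaphorin, had 9, 5 and 88 counts in the β1-WT-GFP cultures and 0, 3 and 0 in the β1-K794Q-GFP cultures, and Plxnc1, the receptor of Sema7a, had 4, 5 and 0 and 3, 0 and 55 counts.

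Per exon length the receptors Plxnd1 and Ephb4 had the highest levels. Plxnd1, the endothelial receptor of Sema3e, had a mean of 209 CPM per kb over the 6 cultures, at percentile 99.5 of the tested genes, and Ephb4 had 185 CPM per kb, at percentile 99.3. Plxnd1 was above Ephb4 in every culture but β1-K794Q-GFP culture C, where they had 264 and 266 CPM per kb. Their spreads over the cultures overlapped, with SDs of 64.5 and 57.7 CPM per kb. Sema4c (77.5), Robo4 (64.1) and Sema3f (53.2 CPM per kb) followed, again with overlapping spreads. The lowest tested levels were those of Plxna3 (0.106) and Sema6c (0.178 CPM per kb). Within families 1 gene often held most of the level: Ephb4 took between 73.6% and 93.9% of the summed Eph receptor level per length in a culture, Plxnd1 between 62.5% and 82.4% of the plexin level, and Robo4 between 61.7% and 91.7% of the Robo level. Among semaphorins the share of the leading gene, Sema4c, ranged from 6.92% to 50.7%. The plot of levels per exon length shows the order of the genes together with the distance between cultures.

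**Figure D1:**
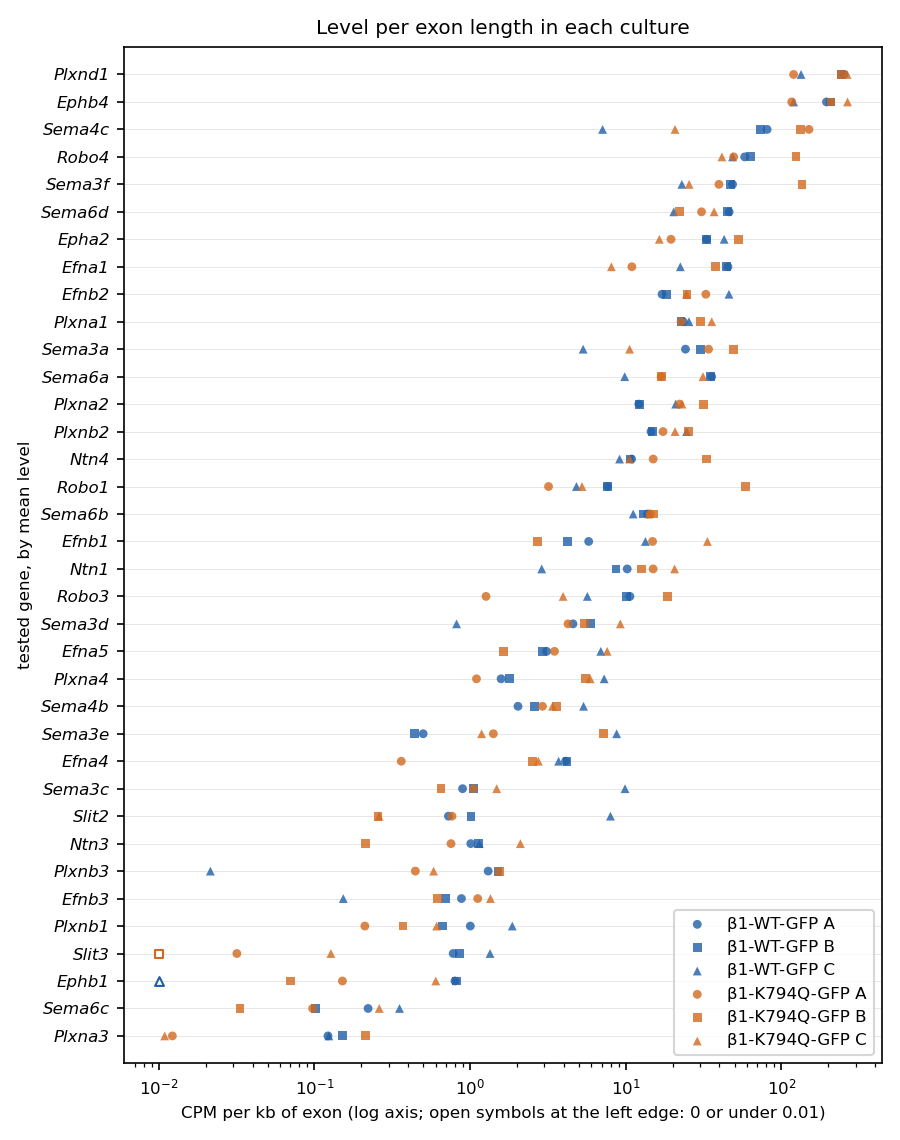
Level of each tested gene in CPM per kb of exon (horizontal log axis), with 1 symbol per culture in blue for β1-WT-GFP and orange for β1-K794Q-GFP cells; open symbols at the left edge stand for values of 0. Plxnd1 and Ephb4 lie at the top at means of 209 and 185 CPM per kb, and the symbols of many genes lie more than 2-fold apart within a group.

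Cultures of the same group differed among themselves to unequal degrees. At least 2-fold apart (after adding 0.5 CPM) in the β1-WT-GFP pair A and B were 0 of the 36 genes (0.56% of all tested genes), against 19 in the pair A and C (23.3% of all) and 20 in the pair B and C (21.9% of all). Among the β1-K794Q-GFP cultures 17 of the 36 were as far apart between A and B (17.2% of all), 14 between A and C (7.78% of all) and 19 between B and C (22.1% of all). The median distance between β1-WT-GFP cultures A and C was 1.04 on the log2 scale for the guidance genes and 0.49 for all tested genes. The closest pair, β1-WT-GFP cultures A and B, were analysed as separate samples because their labels name them so. β1-WT-GFP culture C was the highest or lowest of the 6 cultures in 21 of the 36 genes (51.5% of all tested genes), and β1-K794Q-GFP culture B in 19 (44.1% of all). Both cultures therefore stand apart from the others of their group, and values without them are given beside the results that rest on them.

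**Figure D2:**
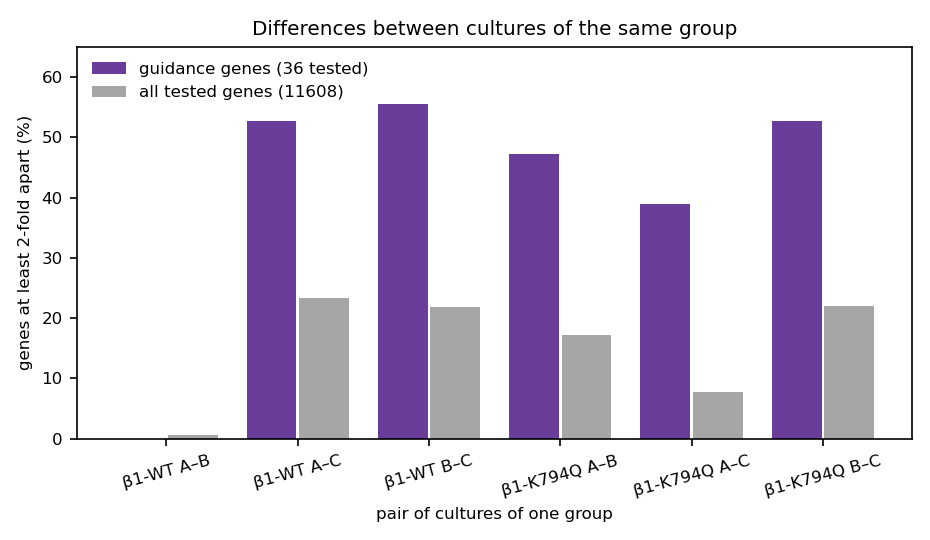
Share in percent of genes at least 2-fold apart between each pair of cultures of a group, for the 36 tested guidance genes (purple) and all 11608 tested genes (grey). The bar of the guidance genes is at 0 for the β1-WT-GFP pair A and B and the higher of the bars in the other pairs.

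**Figure D3:**
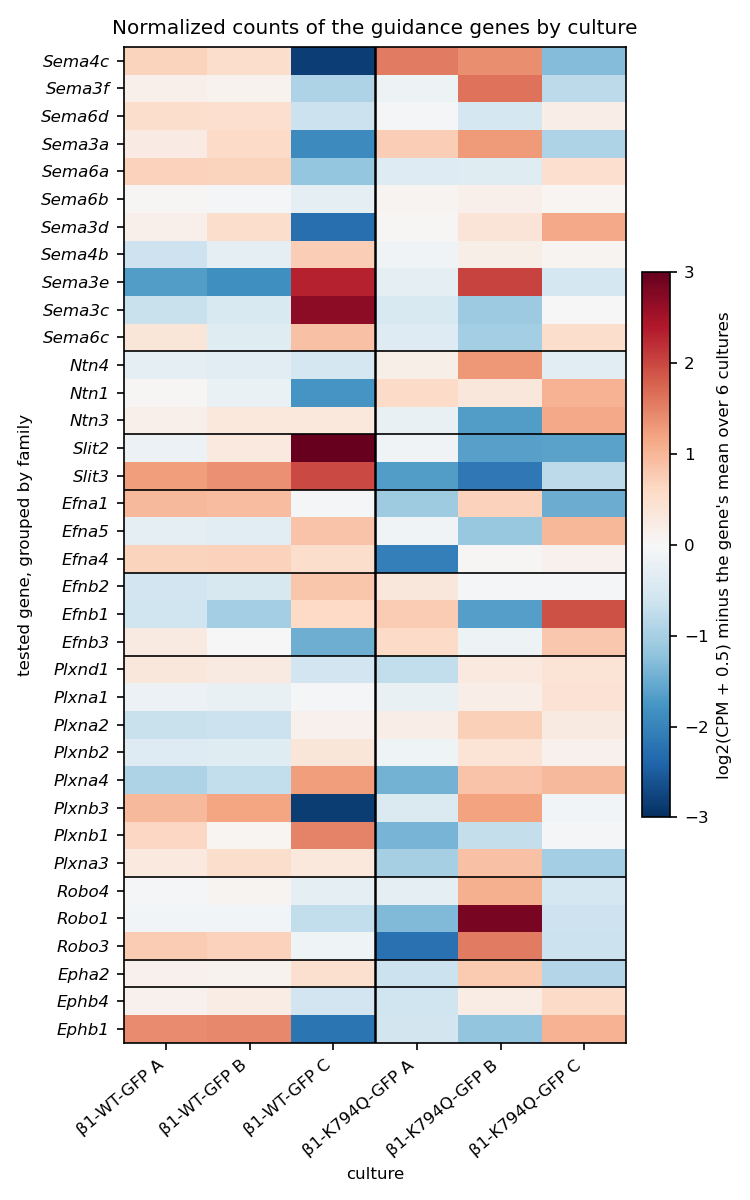
Heat map of log2(CPM + 0.5) of the 36 tested genes (vertical, grouped by family) in the 6 cultures (horizontal), each gene minus its own mean over the cultures; colours end at 3 in either direction. β1-WT-GFP culture C and β1-K794Q-GFP culture B hold many of the darkest fields, such as Slit2 and Sema3c in the first and Robo1 in the second.

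The β1-K794Q-GFP cultures were compared with the β1-WT-GFP cultures, and each count is given beside that of all tested genes. Both thresholds mean a 2-fold or larger difference together with p up to 0.05, unadjusted, in the quasi-likelihood F-test of edgeR. Of the 36 tested genes, 3 passed both thresholds (5.19% of all tested genes did), 0 of them higher (3.48% of all) and 3 lower (1.71% of all) in β1-K794Q-GFP cells. The 3 were Slit2, Slit3 and Plxnb1, and none of them was past an adjusted p of 0.05 (0 of 36, against 0.181% of all tested genes). At the unadjusted p alone there were 4 genes, Plxna2 being the other one, near the share of all tested genes (1180 or 10.2%). At an adjusted p up to 0.05 DESeq2 gave 2 genes (Slit2 and Slit3) of 33 and 477 of all 11487 for which it gave a p, and the likelihood ratio test gave 1 (Slit3) and 318 of all tested genes. DESeq2 gave no p for Robo1, Sema3c and Sema3e. Leaving out β1-WT-GFP culture A made the count 5, leaving out β1-K794Q-GFP culture B made it 6 and leaving out β1-K794Q-GFP culture A made it 2. It was again 3 with any other culture left out, but with 2 higher and 1 lower gene when this was β1-WT-GFP culture C, and with 1 higher and 2 lower when it was β1-K794Q-GFP culture C. Among all tested genes 603 passed with all 6 cultures (5.19%). With β1-WT-GFP culture A, B or C left out these were 528 (4.45%), 501 (4.21%) and 992 (8.38%), and with β1-K794Q-GFP culture A, B or C left out 536 (4.53%), 942 (7.95%) and 650 (5.52%). In 6 of the 36 the cultures of the groups did not overlap (16.6% of all tested genes), with Ntn1, Plxna2 and Sema6b higher and Efna4, Plxnb1 and Slit3 lower in each β1-K794Q-GFP culture than in each β1-WT-GFP culture.

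The log2 fold changes had no common direction: 18 genes were above and 18 below 0, with a median of 0.00, against -0.02 over all tested genes. Their standard errors were wide, with a median of 0.67 against 0.30 over all tested genes. By family the median log2 fold change was 0.01 for the 11 semaphorins, 0.11 for the 8 plexins, 0.34 for the 3 Robo genes, 0.93 for the 3 netrins, 0.85 for the 3 ephrin-B genes, -0.98 for the 3 ephrin-A genes, -0.38 for the 2 EphB genes and -3.53 for the 2 Slits. The only tested EphA gene, Epha2, had -0.29. These medians moved with single cultures. Leaving out β1-K794Q-GFP culture B gave -0.13 for the semaphorins, -0.07 for the plexins, -0.66 for the Robo genes, 0.39 for the netrins, -0.17 for the EphB genes and -1.01 for Epha2. Leaving out β1-K794Q-GFP culture C gave 0.22 for the semaphorins, -0.01 for the plexins, 0.62 for the Robo genes, 0.17 for the ephrin-B genes, -1.17 for the EphB genes and -0.00278 for Epha2. In the same fit the Slits were at -2.66 (Slit2) and -5.80 (Slit3), against -2.92 and -4.14 with all 6 cultures. Leaving out β1-K794Q-GFP culture A gave 0.21 for the semaphorins, 0.31 for the plexins, 0.55 for the Robo genes, -0.60 for the ephrin-A genes, -0.10 for the EphB genes and -0.07 for Epha2. Leaving out β1-WT-GFP culture C gave -2.43 for the Slits, 0.21 for the semaphorins, 0.07 for the plexins, -0.77 for the EphB genes and -0.15 for Epha2, and leaving out β1-WT-GFP culture A or B gave -0.05 or -0.07 for the semaphorins and -0.14 or -0.10 for the EphB genes.

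**Figure D4:**
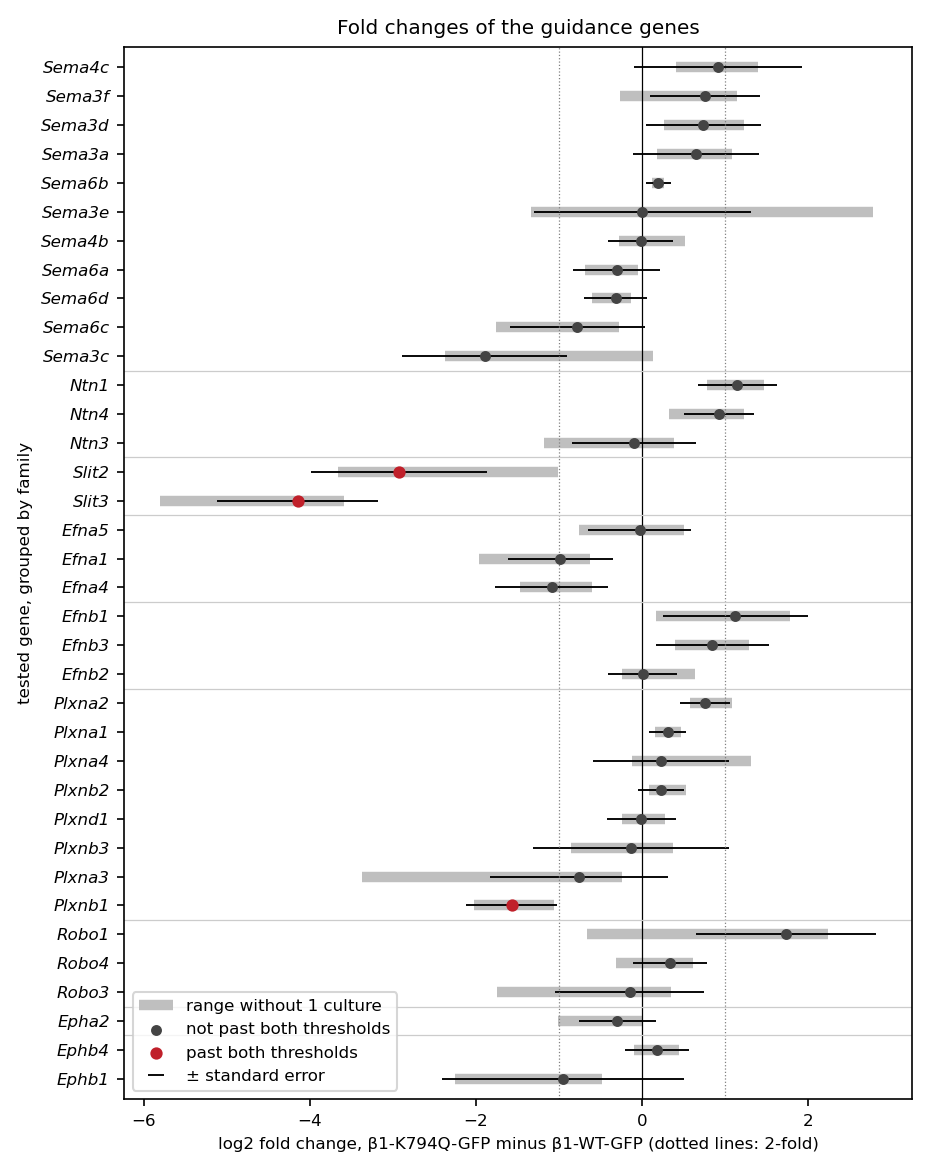
Log2 fold change (β1-K794Q-GFP minus β1-WT-GFP) of each tested gene with its standard error (black line) and, in grey, the range of the fits that each left out 1 culture; genes past both thresholds are red, and dotted lines mark 2-fold. Slit2, Slit3 and Plxnb1 are the red genes, all to the left of 0, and the grey bars of 14 genes cross 0.

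The promoters of the 3 genes past both thresholds are shown for their sequence alone. They are from RefSeq on GRCm38.p6, which had an entry for 30 of the 36 tested genes, and run from 250 bases before to 50 bases after the RefSeq start site, 5′ to 3′ on the strand of the gene. Capitals mark matches on either strand to the motifs searched, which were the TATA box TATAAA, the GC box GGGCGG, the ETS motif CCGGAAG, the TEAD motif GGAATG and the AP-1 motif TGANTCA. The Slit2 promoter lies at chr5:47982905-47983204 (plus strand) and its start site is 17 bases inside the GENCODE gene. That of Slit3 lies at chr11:35121206-35121505 (plus strand), with a start site 232 bases inside the gene, and that of Plxnb1 at chr9:109095186-109095485 (plus strand), 47 bases inside the gene.
Slit2: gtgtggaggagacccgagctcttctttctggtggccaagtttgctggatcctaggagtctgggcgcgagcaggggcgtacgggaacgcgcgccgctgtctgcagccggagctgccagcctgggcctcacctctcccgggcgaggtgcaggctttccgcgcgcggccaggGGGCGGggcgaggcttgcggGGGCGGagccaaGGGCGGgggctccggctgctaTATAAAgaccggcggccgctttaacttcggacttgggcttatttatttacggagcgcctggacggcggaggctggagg
Slit3: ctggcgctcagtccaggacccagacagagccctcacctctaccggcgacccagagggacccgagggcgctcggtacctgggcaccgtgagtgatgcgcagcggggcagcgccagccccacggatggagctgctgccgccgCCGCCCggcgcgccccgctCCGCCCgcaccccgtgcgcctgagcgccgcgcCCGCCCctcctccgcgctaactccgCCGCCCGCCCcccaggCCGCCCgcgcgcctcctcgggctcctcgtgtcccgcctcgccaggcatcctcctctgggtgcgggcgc
Plxnb1: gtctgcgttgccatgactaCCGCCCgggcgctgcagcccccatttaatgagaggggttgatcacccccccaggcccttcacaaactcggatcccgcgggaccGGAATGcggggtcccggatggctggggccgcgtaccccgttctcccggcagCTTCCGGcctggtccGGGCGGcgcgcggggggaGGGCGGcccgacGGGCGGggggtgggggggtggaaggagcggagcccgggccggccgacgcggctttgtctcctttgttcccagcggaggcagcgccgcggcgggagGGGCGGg
The Slit2 window held 3 GC boxes and 1 TATA box, which began 28 bases before the start site. The Slit3 window held 6 GC boxes, a pair of them overlapping by their ends, and none of the other motifs. The Plxnb1 window held 5 GC boxes, 1 ETS motif and 1 TEAD motif, with no overlap between matches, and the AP-1 motif was in none of the 3. Of 32817 RefSeq promoters of this length 35.6% held a GC box, 13.6% the TATA box, 8.86% the ETS motif, 14.7% the TEAD motif and 7.81% the AP-1 motif. Of the 37 promoters of tested guidance genes 73.0% held a GC box, 5.41% the TATA box, 2.7% the ETS motif, 13.5% the TEAD motif and 5.41% the AP-1 motif. G and C made up 68.0% of the Slit2 window, 78.3% of the Slit3 window and 74.7% of the Plxnb1 window, against a median of 52.7% over all promoters and 63.7% over those of tested guidance genes, so GC boxes and a high GC content were common in this set. A match describes the letters of the window and no binding was measured.

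Among the ligands, 2 of the 2 tested Slits were lower past both thresholds (1.71% of all tested genes were), Slit2 with the dependence on single cultures given below. Slit3 had enough counts for the test only in the β1-WT-GFP cultures, so its direction was largely set by the filter. Slit3 (chromosome 11, 35121224 to 35708507), a secreted ligand of Robo receptors, had 4.72, 5.20 and 8.15 CPM in the β1-WT-GFP cultures, from 54, 52 and 117 counts. In the β1-K794Q-GFP cultures it had 0.193, 0 and 0.774 CPM, from 2, 0 and 9 counts. All 3 β1-K794Q-GFP values lay below all 3 β1-WT-GFP values, with β1-K794Q-GFP cultures A and B under the limit of 3 counts. The log2 fold change was -4.14 (SE 0.97, adjusted p = 0.190, edgeR). The pooled counts gave 18.2-fold more in β1-WT-GFP cells with an exact 95% counting interval of 9.99 to 37.0. This interval covers counting error only and leaves out the spread between cultures. With each culture left out in turn Slit3 was past both thresholds 6 of 6 times, with log2 fold changes between -5.80 and -3.59. Its level was low throughout, at 0.523 CPM per kb or percentile 4.28 of the tested genes.

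Slit2 (chromosome 5, 47983138 to 48307733), a secreted ligand of Robo1 and of other Robo receptors, had 18.5, 25.8 and 203 CPM in the β1-WT-GFP cultures. It had 19.4, 6.51 and 6.62 CPM in the β1-K794Q-GFP cultures. β1-WT-GFP culture C stood 7.86-fold above the next culture, and β1-K794Q-GFP culture A lay above β1-WT-GFP culture A, so the groups overlapped. The log2 fold change of -2.92 (SE 1.06; adjusted p = 0.411, edgeR) passed both thresholds with all 6 cultures and rested on β1-WT-GFP culture C. Without that culture it was -1.01 and no longer past them, and the pooled counts gave 2.04-fold (95% counting interval 1.77 to 2.35) in place of 8.81-fold. As for Slit3, the interval leaves out the spread between cultures. The thresholds were also not passed without β1-K794Q-GFP culture B (-2.67) or C (-2.66), or with the culture letter as a block (-2.21). Slit1 had at most 1 count in any culture.

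Ntn1 (chromosome 11, 68209364 to 68400823), a secreted laminin-related cue, had 64.1, 54.3 and 18.1 CPM in the β1-WT-GFP cultures and 94.1, 79.0 and 129 CPM in the β1-K794Q-GFP cultures. All 3 β1-K794Q-GFP values lay above all 3 β1-WT-GFP values, with β1-WT-GFP culture C the lowest of the 6. The log2 fold change of 1.15 (SE 0.48; adjusted p = 0.491, edgeR) was over 2-fold and just missed the threshold for the unadjusted p. It passed both 1 of 6 times with a culture left out, without β1-WT-GFP culture A (1.47), and was 0.78 without β1-WT-GFP culture C. With all 6 cultures it passed both in 6 of 7 alternative fits, namely with no filter, the stricter filter, RLE, DESeq2, the likelihood ratio test and the regional offset, at log2 fold changes between 1.13 and 1.15, and its adjusted p was 0.275 to 0.566 in these. Ntn4, a netrin of basement membranes, had 40.8, 39.8 and 34.1 CPM in the β1-WT-GFP cultures and 56.1, 123 and 39.6 CPM in the β1-K794Q-GFP cultures. Its log2 fold change of 0.93 did not pass the thresholds with all 6 cultures, was 0.33 with β1-K794Q-GFP culture B left out, and passed them at 1.23 without β1-K794Q-GFP culture C. Ntn4 lies on chromosome 10, where the running median of 25 neighbouring genes was itself higher by 0.62 (log2) in β1-K794Q-GFP cells, and relative to its neighbours Ntn4 was at 0.34. Summed over the family, the netrin level per exon length was 22.1, 20.4 and 13.2 CPM per kb in the β1-WT-GFP cultures and 30.7, 45.8 and 33.3 CPM per kb in the β1-K794Q-GFP cultures.

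**Figure D5:**
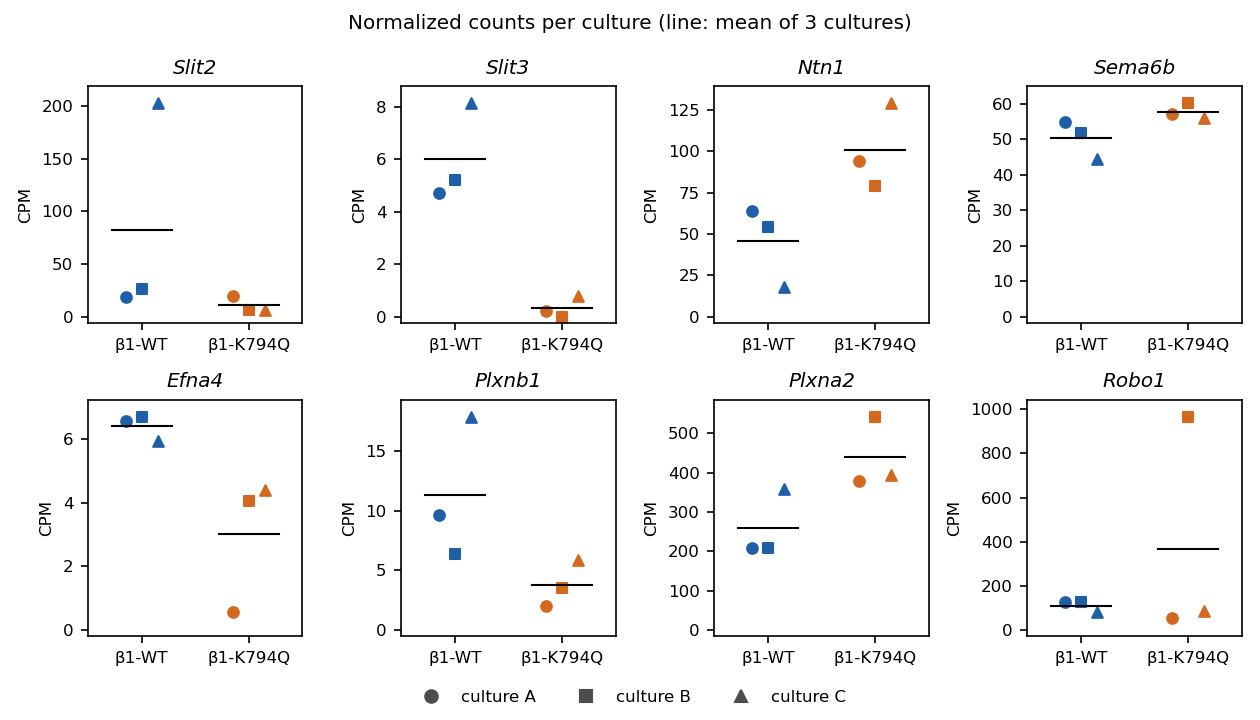
CPM of 8 genes in each culture (circle A, square B, triangle C; blue β1-WT-GFP, orange β1-K794Q-GFP cells; line, mean of 3 cultures). In Slit3, Ntn1, Sema6b, Efna4, Plxnb1 and Plxna2 the groups do not overlap, whereas 1 culture sets the mean in Slit2 (β1-WT-GFP culture C) and in Robo1 (β1-K794Q-GFP culture B).

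With all 6 cultures and the filter on low counts, 0 of the 11 tested semaphorins passed both thresholds in edgeR's F-test by group or in the likelihood ratio test, and 0 of 9 in DESeq2, which gave no p for Sema3c and Sema3e. With no filter on low counts 2 of 19 passed, Sema4d and Sema5a, both lower and with few counts, as did 916 of 15974 genes in all (5.73%). Leaving out β1-WT-GFP culture A or C made the count 1 each, with Sema3c and Sema3e. None of the 11 had an unadjusted p up to 0.05 in edgeR's F-test by group, whose adjusted p was between 0.620 and 0.999. With the culture letter as a block Sema4c passed both thresholds, at 1.10. Sema4c, a transmembrane ligand of plexin B2, had 372, 335 and 32.6 CPM in the β1-WT-GFP cultures and 690.2, 612 and 95.2 CPM in the β1-K794Q-GFP cultures. Culture C was the lowest of its group on both sides, the groups overlapped, and the log2 fold change was 0.92 ± 1.01 (SE). Sema3f, a secreted ligand that binds neuropilin 2, had 252, 245 and 119 CPM in the β1-WT-GFP cultures and 206, 704 and 133 CPM in the β1-K794Q-GFP cultures. β1-K794Q-GFP culture B stood 2.79-fold above the next culture, and the log2 fold change of 0.76 became -0.27 without it.

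Sema6b, a transmembrane ligand of plexins A2 and A4, was the semaphorin with the narrowest range. It had 54.8, 51.7 and 44.3 CPM in the β1-WT-GFP cultures and 57.0, 60.2 and 56.0 CPM in the β1-K794Q-GFP cultures. The groups did not overlap, yet the log2 fold change was 0.20 ± 0.15 (SE) and was not past the thresholds (adjusted p = 0.764 from edgeR's test). Sema6a and Sema6d, transmembrane ligands of A-type plexins, had log2 fold changes of -0.30 and -0.31 with standard errors of 0.53 and 0.38.

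The secreted Sema3d, Sema3a, Sema3e and Sema3c lie in this order on chromosome 5, between 12383385 and 17730268 of GRCm38, and did not move alike between cultures. These 4 were picked for their position after their values were seen. In β1-WT-GFP culture C Sema3a, the ligand of neuropilin 1, and Sema3d were low, at 73.8 and 7.03 CPM against 335 and 39.4 CPM in culture A. In the same culture Sema3e, the ligand of plexin D1, and Sema3c were high, at 81.1 and 70.6 CPM against 4.64 and 6.39 CPM in culture A. Sema3e was also high in β1-K794Q-GFP culture B, at 66.4 CPM against 13.1 in A and 11.0 in C. Its log2 fold change was 0.01 with all 6 cultures, 2.79 without β1-WT-GFP culture C, which passed both thresholds, and -1.33 without β1-K794Q-GFP culture B. That of Sema3c was -1.89 and became 0.14 without β1-WT-GFP culture C; without β1-WT-GFP culture A it was -2.37 and passed both thresholds.

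The 3 tested ephrin-A genes were below 0 and the 3 ephrin-B genes above it, but Efna5 and Efnb2 were near 0 and changed sides in 3 of the 6 fits each that left out a culture. Efna5 was at 0.51 without β1-WT-GFP culture C, 0.10 without β1-K794Q-GFP culture A and 0.36 without β1-K794Q-GFP culture B, and Efnb2 at -0.24 and -0.21 without β1-WT-GFP culture A or B and -0.15 without β1-K794Q-GFP culture A. They also did so with the regional level taken out (0.05 and -0.21), Efnb2 with no filter on low counts (-0.00342) and Efna5 without both β1-WT-GFP culture C and β1-K794Q-GFP culture B (0.90). With all 6 cultures none of the 6 was past both thresholds in edgeR's F-test by group, DESeq2 or the likelihood ratio test. In the F-test by group 0 of 6 had an unadjusted p up to 0.05. With the culture letter as a block Efna1 passed both thresholds, at -1.25. Efna1, a membrane-anchored ligand of Epha2, had 82.9, 81.2 and 41.0 CPM in the β1-WT-GFP cultures and 20.0, 69.0 and 14.8 CPM in the β1-K794Q-GFP cultures. β1-K794Q-GFP cultures A and C lay below the β1-WT-GFP range and culture B within it, and the log2 fold change of -0.98 (SE 0.63) became -1.96 without β1-K794Q-GFP culture B, past both thresholds. Efna4, which lies near Efna1 on chromosome 3, had 6.56, 6.70 and 5.92 CPM in the β1-WT-GFP cultures and 0.578, 4.05 and 4.39 CPM in the β1-K794Q-GFP cultures. Its groups did not overlap and its log2 fold change was -1.08 (SE 0.68; adjusted p = 0.698, edgeR), between -1.46 and -0.60 with a culture left out. Efna5 had a log2 fold change of -0.03 ± 0.62 (SE).

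Efnb2, the arterial ligand of EphB4, had 117, 126 and 315 CPM in the β1-WT-GFP cultures and 224, 169.7 and 168 CPM in the β1-K794Q-GFP cultures. The groups overlapped because β1-WT-GFP culture C was the highest of the 6; the log2 fold change was 0.01 with it and 0.64 without it, neither past the thresholds. Efnb1, a further transmembrane ephrin, had 19.9, 14.6 and 46.2 CPM in the β1-WT-GFP cultures and 51.3, 9.38 and 115 CPM in the β1-K794Q-GFP cultures. The β1-K794Q-GFP cultures spanned a range wider than that of the β1-WT-GFP cultures, and the log2 fold change of 1.12 (SE 0.87) did not pass the thresholds, whereas 1.63 without β1-K794Q-GFP culture B did. It was 0.17 without β1-K794Q-GFP culture C and 1.78 without β1-WT-GFP culture C, neither past the thresholds.

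Of the receptors, the plexins included 1 gene past both thresholds. Plxnb1 (chromosome 9, 109095389 to 109119917), the receptor of Sema4d, had 9.62, 6.40 and 17.9 CPM in the β1-WT-GFP cultures. It had 2.02, 3.55 and 5.85 CPM in the β1-K794Q-GFP cultures. All 3 β1-K794Q-GFP values lay below the 3 β1-WT-GFP values, by a small margin between β1-K794Q-GFP culture C and β1-WT-GFP culture B. The log2 fold change was -1.57 (SE 0.55; adjusted p = 0.383, edgeR). It passed both thresholds 3 of 6 times with a culture left out and not without β1-WT-GFP culture C (-1.06), β1-K794Q-GFP culture A (-1.27) or β1-K794Q-GFP culture B (-1.52). Its level of 0.788 CPM per kb was at percentile 6.93 of the tested genes, and its ligand gene Sema4d had at most 8 counts in any culture.

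Plxna2 (chromosome 1, 194618218 to 194816869), a receptor of class 6 semaphorins, had 208, 209 and 359 CPM in the β1-WT-GFP cultures and 380.2, 543 and 395 CPM in the β1-K794Q-GFP cultures. The groups did not overlap, with β1-WT-GFP culture C closest to the β1-K794Q-GFP cultures. The log2 fold change of 0.76 (SE 0.30; adjusted p = 0.459, edgeR) was under 2-fold, and 1.08 without β1-WT-GFP culture C, past both thresholds. Plxnd1 had 1846, 1762 and 976 CPM in the β1-WT-GFP cultures and 874, 1768 and 1929 CPM in the β1-K794Q-GFP cultures. β1-WT-GFP culture C and β1-K794Q-GFP culture A were low by about the same amount, the groups overlapped, and the log2 fold change was -0.00 ± 0.42 (SE). Plxna1, a partner of neuropilins, had 212, 205 and 231 CPM in the β1-WT-GFP cultures and 205, 274 and 323 CPM in the β1-K794Q-GFP cultures, with a log2 fold change of 0.31 (SE 0.22). Plxna3, the tested plexin with the lowest level, passed both thresholds without β1-K794Q-GFP culture B (-3.37) and had -0.76 with all 6 cultures.

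The 3 tested Robo genes were highest in β1-K794Q-GFP culture B, as were other guidance genes. Robo4, the Robo receptor found mainly in endothelium, had 308, 334 and 257 CPM in the β1-WT-GFP cultures and 262, 658 and 219.8 CPM in the β1-K794Q-GFP cultures. Robo1, a Slit receptor, had 126, 126 and 79.6 CPM in the β1-WT-GFP cultures and 52.7, 967 and 86.4 CPM in the β1-K794Q-GFP cultures. Robo3, which lies 0.553 kb from Robo4 on chromosome 9, had 72.8, 69.0 and 38.8 CPM in the β1-WT-GFP cultures and 8.66, 127 and 27.1 CPM in the β1-K794Q-GFP cultures. In these 3 genes β1-K794Q-GFP culture B stood 7.65-fold (Robo1), 1.97-fold (Robo4) and 1.75-fold (Robo3) above the next culture. The same culture was the highest of the 6 in 12 of the 36 guidance genes and in 2543 of the 11608 tested genes. The log2 fold changes were 0.34, 1.74 and -0.15 for Robo4, Robo1 and Robo3, none past the thresholds, and without β1-K794Q-GFP culture B they were -0.31, -0.66 and -1.74, the last past both thresholds.

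Of the Eph receptors, Ephb4, the venous receptor of ephrin-B2, had 904, 960.1 and 556 CPM in the β1-WT-GFP cultures. It had 540.3, 967 and 1234 CPM in the β1-K794Q-GFP cultures. β1-WT-GFP culture C and β1-K794Q-GFP culture A were the lowest, as for Plxnd1, and the log2 fold change was 0.18 ± 0.39 (SE). Exons of Ephb4 share 33 bases with Zan on the other strand, 0.711% of its exon length. Epha2, the receptor of ephrin-A1, had 155, 154 and 200.3 CPM in the β1-WT-GFP cultures and 91.3, 247 and 76.8 CPM in the β1-K794Q-GFP cultures. β1-K794Q-GFP cultures A and C lay below the β1-WT-GFP range and culture B above it, and the log2 fold change of -0.29 (SE 0.47) became -1.01 without β1-K794Q-GFP culture B, past both thresholds. Ephb1 had 5.60, 5.70 and 0 CPM in the β1-WT-GFP cultures and 1.06, 0.493 and 4.21 CPM in the β1-K794Q-GFP cultures, a log2 fold change of -0.95 ± 1.46 (SE) that ranged from -2.25 (without β1-K794Q-GFP culture C) to -0.48 (without β1-K794Q-GFP culture B) with 1 culture left out.

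In 14 of the 36 genes the sign of the log2 fold change turned when 1 culture was left out, among them the abundant Plxnd1 (from -0.23 to 0.28), Ephb4 (from -0.10 to 0.45), Robo4 (from -0.31 to 0.62) and Sema3f (from -0.27 to 1.15). A fit without both cultures that stood apart, β1-WT-GFP cultures A and B against β1-K794Q-GFP cultures A and C, was chosen after seeing the data. In it 7 of the 36 genes passed both thresholds (14.2% of all tested genes), 2 higher and 5 lower, and the adjusted p was up to 0.05 for 9 of the 36 and for 1796 of all tested genes. Among the 7 was 1 of the 3 genes found with all 6 cultures, Slit3, at -3.28. Slit2, at -0.75 in this fit, and Plxnb1 were not among them. The 6 others were Efna1 (-2.22), Robo3 (-1.97), Plxna3 (-3.40) and Plxnb3 (-1.43), lower, and Efnb1 (2.29) and Sema3e (1.48), higher in β1-K794Q-GFP cells. This fit rests on 2 cultures a group, and β1-WT-GFP cultures A and B were the pair most alike of all.

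The other genes of these pathways were past the thresholds in 1 case. Of 68 partners, effectors and netrin receptors 55 were tested, 0 were higher and 1 was lower past both thresholds (1.82%, against 5.19% of all tested genes), with a median log2 fold change of 0.01, against -0.02 over all tested genes. This count of 1 became 6 of 56 on leaving out β1-WT-GFP culture C (8.38% of all tested genes), 7 of 56 on leaving out β1-K794Q-GFP culture B (7.95% of all), and 2 on leaving out β1-WT-GFP culture A or B or β1-K794Q-GFP culture C (4.45%, 4.21% and 5.52% of all). DESeq2 gave 3 of 53 (6.05% of all) and the likelihood ratio test 3 of 55 (6.26% of all), and 3 genes had an unadjusted p up to 0.05 in edgeR (10.2% of all). The lower gene was Itsn1, an endocytic scaffold that acts below EphB receptors. Itsn1 had 87.8, 87.4 and 70.2 CPM in the β1-WT-GFP cultures and 36.9, 24.3 and 46.7 CPM in the β1-K794Q-GFP cultures. Its groups did not overlap, its log2 fold change was -1.19 (SE 0.27; adjusted p = 0.178, edgeR), and its adjusted p was at most 0.05 in DESeq2 (0.00955), in the likelihood ratio test (0.0274) and without β1-WT-GFP culture C and β1-K794Q-GFP culture B together (0.0158), within a range of 0.00955 to 0.639 over all alternatives. Itsn1 fell short of the thresholds 1 of 6 times with a culture left out, without β1-K794Q-GFP culture B (-0.96). It was 1 of 15 tested ephrin effectors; of the semaphorin and plexin partners 0 of 23 passed both thresholds, of the Slit and Robo effectors 0 of 14, and of the netrin receptors 0 of 3. Leaving out β1-WT-GFP culture C or β1-K794Q-GFP culture B gave 3 of 23 semaphorin and plexin partners and 2 of 14 Slit and Robo effectors in either case, and leaving out β1-WT-GFP culture A or B gave 1 of 14 Slit and Robo effectors. The ephrin effectors had 2 on leaving out β1-K794Q-GFP culture B or C. Crmp1, a mediator of semaphorin signals named here after its values were seen, had 69.9, 79.7 and 82.6 CPM in the β1-WT-GFP cultures and 11.8, 57.0 and 13.6 CPM in the β1-K794Q-GFP cultures. Its groups did not overlap, and its log2 fold change of -1.49 (SE 0.63, adjusted p = 0.496, edgeR) missed the threshold for p in the F-test by group. With all 6 cultures it passed both in DESeq2 and the likelihood ratio test (-1.49 in both). It also did so with no filter (-1.50), the block by culture letter (-1.90) and the regional offset (-1.67). Leaving out β1-K794Q-GFP culture B gave -2.60, past both. Named in the same way, Rap1b was higher (0.92) and Abl2 lower (-0.91) without overlap, both under 2-fold. The running medians of their neighbours were 0.88 and -0.48. Tiam1 was lower without overlap (-1.19) and missed the threshold for p in the F-test by group. It passed both in DESeq2, the likelihood ratio test, with no filter, with the block and without β1-K794Q-GFP culture C. The other tested genes of these lists without overlap were Gipc1, Nck2 and Usp33, lower, and Mical3, higher. Over all tested genes 16.6% were without overlap. The genes with the most counts among the ephrin effectors and the netrin receptors had log2 fold changes of -0.04 (Crk, an adaptor) and 0.54 (Neo1, the netrin receptor neogenin), neither past the thresholds. Dcc, the netrin receptor of neurons, had 0 counts in every culture.

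Lists of cell type markers were looked at next, and the genes named from them were chosen after their values were seen. All 13 endothelial markers were tested. Of them 0 passed both thresholds in edgeR (5.19% of all tested genes), DESeq2 (6.05% of all) or the likelihood ratio test (6.26% of all). In edgeR 0 had an unadjusted p up to 0.05 (10.2% of all). Their sums were 8343, 9467 and 8949.7 CPM in the β1-WT-GFP cultures and 6935, 13155 and 7932 CPM in the β1-K794Q-GFP cultures. Pecam1 had the most counts of the 13, and Vwf was near the limit of detection, at 0.262 to 2.41 CPM. Cldn5 had 267, 252 and 4.74 CPM in the β1-WT-GFP cultures and 17.5, 0 and 24.2 CPM in the β1-K794Q-GFP cultures. Its log2 fold change of -3.64 (SE 1.81) was over 2-fold but missed the threshold for p in edgeR. The paper reports decreased Cldn5 transcripts in β1-K794Q-GFP cells. Without β1-WT-GFP culture C 1 of the 13 passed both thresholds (8.38% of all tested genes), and without this and β1-K794Q-GFP culture B 2 did (14.2% of all). Robo4 is both 1 of these 13 and a guidance gene. Of 10 mesenchymal markers 2 were tested and 1 was lower in β1-K794Q-GFP cells, with sums of 184, 195 and 85.5 CPM in the β1-WT-GFP cultures and 3.66, 3.75 and 2.58 CPM in the β1-K794Q-GFP cultures. The lower gene and the most abundant of the list was the transcription factor Prrx1, with 183, 194 and 56.5 CPM in the β1-WT-GFP cultures and 0.0963, 0.0987 and 0 CPM in the β1-K794Q-GFP cultures (adjusted p = 0.0198, edgeR), while Dcn, Des and Lum had 0 counts in every culture. Without β1-WT-GFP culture A or B or β1-K794Q-GFP culture A or C, 1 mesenchymal marker was past both thresholds and 0 were at an adjusted p up to 0.05. Over all tested genes 0, 1, 0 and 0 were at such an adjusted p in these fits, in this order. Pdgfra, the other tested one, had 0.525, 0.700 and 16.4 CPM in the β1-WT-GFP cultures, highest in the culture where Slit2 was highest. Of the untested markers some were highest in that culture too: in the β1-WT-GFP cultures Col1a1 had 1, 1 and 85 counts, Col3a1 2, 2 and 44, Pdgfrb 0, 2 and 33, Acta2 0, 0 and 17 and the neural marker Tubb3 3, 0 and 103, whereas the mesenchymal sum was lowest there because Prrx1 carries it. Others were highest in β1-K794Q-GFP culture B, with 0, 32 and 1 counts of Col1a2 and 0, 24 and 0 of the neural marker Snap25 in the β1-K794Q-GFP cultures. Prrx1 itself was lowest of the β1-WT-GFP cultures in C, where Slit2, Slit3 and Plxnb1 were highest. The part of other cell types in the values of these genes was not tested. Of 8 neural and glial markers 1 was tested, with sums of 2.45, 2.30 and 8.43 and 1.83, 4.44 and 1.38 CPM in the same order and 0 counts of Elavl4 and Sox10. The 5 epithelial markers summed to at most 0.592 CPM in any culture, with Epcam, Krt18 and Krt5 at 0. Of 5 blood markers 4 were in the table and 1, Cd68, was tested and not past the thresholds, with sums of 76.5, 88.6 and 37.6 and 71.2, 103 and 31.0 CPM, while Hba-a1 was at 0.

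The number of transfections behind the 3 cultures of each chimera is not given, so differences between transfections or between sorts cannot be told from an effect of the mutation. Averaged over all cultures Slit3, Plxnb1 and Slit2 were at low levels, Slit2 at 1.83 CPM per kb or percentile 15.1 of the tested genes. In β1-WT-GFP culture C Slit2 reached 7.97 CPM per kb. The spread between cultures was wide for this set, so that genes short of the thresholds may still have differed. RNA levels do not give the amount of ligand released or of receptor on the cell surface, and no ligand binding or cell movement was measured here.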

How the data were processed

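Total RNA was sequenced after ribosomal RNA depletion. Reads had been aligned with STAR, and the table deposited by the authors gives each mouse gene symbol a raw count. The submitters' processing notes name bcl2fastq 2.20.0, STAR 2.7.4a, HTSeq 0.9.1, edgeR 3.38.4 and build mm10, and neither the annotation nor strandedness is given in the sources used here. Of the table's 6 columns 0 were left unused. The analysis used edgeR 4.0.16 under R 4.3.3: filterByExpr, TMM, and the quasi-likelihood F-test (two-sided, group only, all 6 cultures) on the whole table, with a common dispersion of 0.186 and Benjamini-Hochberg adjusted p-values over 11608 genes. The thresholds, fold change at least 2 and unadjusted p at most 0.05, are those of the paper's methods. A standard error is the absolute value of the log2 fold change divided by the square root of F. Positions and exon lengths came from GENCODE M21 (GRCm38), with 21777 symbols matched directly and 1260 by synonym. The members and lists were chosen with earlier results of these data known. Described with values were, by rule, members past both thresholds or without overlap, the 2 members of each family with the highest level per length, up to 4 whose sign turned, and in the pathway lists the gene past the thresholds and the one with the most counts, given for 2 of the lists; others were chosen after their values were seen. Alternatives were no filter, a stricter filter (10 or more counts throughout 1 or both groups), RLE, DESeq2 1.42.0, the likelihood ratio test, a block by culture letter, a regional offset over 25 genes, and leaving out each culture. Tables and figures were made with matplotlib 3.10.9, scipy 1.17.1, numpy 2.4.6 and pandas 2.3.3 in Python 3.11.15.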

Additional observations from a re-analysis of the deposited data

How the results depend on the processing

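Among the 36 tested guidance genes the count past both thresholds was 3, 0 higher and 3 lower, and it was 6 (1 higher, 5 lower) with no filter on low counts, where 57 were tested and Sema4d and Sema5a were added. It was 4 with the stricter filter, RLE, DESeq2, the likelihood ratio test and the regional offset, with 1 higher in each, since Ntn1 then passed the threshold for p; all tested genes then had 617, 605, 695, 727 and 503 in this order. An adjusted p up to 0.05 was reached by 2 in DESeq2 and 1 in the likelihood ratio test, against 0. With 1 culture left out the count was between 2 and 6, with 0 to 2 higher and 1 to 5 lower, and 0 in each such edgeR fit reached an adjusted p up to 0.05 (0 also with all 6 cultures, where 4 had an unadjusted p up to 0.05). Without β1-WT-GFP culture C and β1-K794Q-GFP culture B, chosen after seeing the data, it was 7 (2 higher, 5 lower) with 9 at an adjusted p up to 0.05; all tested genes then had 1661 past both thresholds and the pathway lists 11. Over all tested genes the count was 603, between 501 and 992 with 1 culture left out and 916 with no filter. The pathway lists had 1, between 1 and 7 with 1 culture left out, 3 with no filter, DESeq2 or the likelihood ratio test, and 2 with the regional offset. With the culture letter as a block the guidance genes had 4 (1 higher, 3 lower), the pathway lists 3 and all tested genes 571; Slit2 (-2.21) was no longer past the thresholds, Ntn1 (1.27) was not, Efna1 (-1.25) and Sema4c (1.10) were, and the log2 fold changes of Plxnb3 and Sema4b became 0.54 and 0.11. Whether the letters pair the cultures is not given in the sources used here. Deviations from the group means correlated over genes at 0.0947 (A), 0.0548 (B) and 0.0952 (C) between cultures of the same letter. Between unlike letters the correlations ran from -0.152 to 0.0954, the highest for β1-WT-GFP culture B with β1-K794Q-GFP culture A. Not every culture therefore correlated best with its own letter. These values are a hint from the data, not the design, and do not settle the pairing. The log2 fold changes that changed sign without 1 culture ranged as follows: Efna5 (-0.75 to 0.51), Efnb2 (-0.24 to 0.64), Ephb4 (-0.10 to 0.45), Ntn3 (-1.18 to 0.39), Plxna4 (-0.12 to 1.32), Plxnb3 (-0.86 to 0.38), Plxnd1 (-0.23 to 0.28), Robo1 (-0.66 to 2.25), Robo3 (-1.74 to 0.36), Robo4 (-0.31 to 0.62), Sema3c (-2.37 to 0.14), Sema3e (-1.33 to 2.79), Sema3f (-0.27 to 1.15) and Sema4b (-0.27 to 0.52). The cause was not tested, beyond the single cultures named beside the results. Without β1-WT-GFP culture C and β1-K794Q-GFP culture B the log2 fold changes on the other side of 0 were 0.90 (Efna5), -0.0550 (Ephb4), 0.44 (Ntn3), -0.84 (Robo1), -0.40 (Robo4), -0.27 (Sema3a), 0.40 (Sema3c), -0.54 (Sema3f), 0.46 (Sema4b) and 0.17 (Sema6c). Changes of sign near 0 were 0.0515 for Efna5, -0.21 for Efnb2 and 0.11 for Plxnd1 with the regional offset, -0.00342 for Efnb2 and -0.00898 for Sema3e with no filter, and 0.00165 with RLE and 0.00166 with DESeq2 for Plxnd1. Slit3, Ephb1, Plxna3 and Plxnb3 had 3 or fewer counts in 1 or more cultures. For Ephb1 and Plxnb3 this was β1-WT-GFP culture C (0 and 2 counts), the culture with the highest total (15287191). The part of depth in these low counts was not tested.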
